A study of Saccharomyces cerevisiae with 24 samples.

Results

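Trehalose is a disaccharide of glucose that budding yeast stores and uses to protect proteins and membranes under stress. It is made by a complex in which Tps1 joins UDP-glucose to phosphorylated glucose, Tps2 removes the phosphate, and Tps3 and Tsl1 act as regulatory subunits. It is broken down by the neutral trehalases Nth1 and Nth2 in the cytosol and by the acid trehalase Ath1, which acts on trehalose outside the cell or in the vacuole. The genes described here are the 7 that encode these proteins, TPS1, TPS2, TPS3 and TSL1 for synthesis and NTH1, NTH2 and ATH1 for breakdown. They were taken by locus tag from a table of 7126 features, all 7 were present, and all 7 passed the filter of a mean of at least 1 FPKM (read fragments scaled to transcript length and to library size) that left 6359 features for testing.

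The RNA-seq libraries, 24 in number, cover 4 strains of W303-1a origin at 3 times after addition of 0.4 M NaCl (0, 10 and 20 min), which makes 12 groups of 2. SHO1 is replaced by HIS3 in all 4, the wild type (WT) included, and all 4 hold a qVenus reporter under the STL1 promoter at leu2. Sho1 and Sln1 head the branches that activate the Hog1 kinase in salt. Sln1 is an osmosensing histidine kinase, and Ypd1 is the carrier that takes its phosphate onward. The mutants differ from the wild type in both proteins. For Ypd1 the changes are M20D in Mut1, M20D plus M92K in Mut2, and I13D in Mut3. For Sln1, Mut1 and Mut2 share E1101K, E1110K and S1179D, to which Mut3 adds L1109K. No label says that the 2 libraries in any group were grown separately, so the p values cover the spread seen here, which may be technical.

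Counts are not part of the table, so sequencing depth is unknown. Summed FPKM lay between 1850840 and 2995690 in the 24 libraries, of which the top 10 features took 16.6 to 31.1%. The mitochondrial 21S_rRNA stood at 118 FPKM in library 0 of Mut2 at 20 min and at no more than 7.86 in the other 23 libraries. The libraries of a group are called 0 and 1 after their column names. Of the 6 listed genes specific to mating type a, the mating type that the name W303-1a gives, all 6 were detected in every library, the lowest value being 5.10 FPKM for ASG7. Of the genes specific to mating type alpha, STE3 reached at most 0.596 FPKM and SAG1 ran from 10.1 to 21.2. MFALPHA1 and MFALPHA2, also on the alpha list, were not matched by name to a feature, so their levels were not read.

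The 7 genes lie apart from each other on 4 chromosomes of the RefSeq R64 reference, the assembly that UCSC calls sacCer3. TPS1 (YBR126C) lies at chrII:488905-490392 and NTH2 (YBR001C) at chrII:238941-241283. TPS2 (YDR074W) lies at chrIV:593893-596583 and NTH1 (YDR001C) at chrIV:450220-452475. TSL1 (YML100W) lies at chrXIII:70624-73920, TPS3 (YMR261C) at chrXIII:790205-793369 and ATH1 (YPR026W) at chrXVI:615379-619014. None of the 7 overlaps another gene of the reference. The coding sequences of the paralogues NTH1 and NTH2 were 72.3% identical over their aligned bases, and those of TPS3 and TSL1 67.2%. Those of TPS1 and TPS2, aligned in the same way, were 68.4% identical, but over only 1453 aligned bases, where TPS2 spans 2691. TPS3 and TSL1, which span 3165 and 3297 bases, aligned over 3080. Bases set against gaps do not count in these values, so they do not rank the pairs by likeness.

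Many general stress genes of yeast carry the stress response element (STRE), bound by the zinc finger factors Msn2 and Msn4. Its core, AGGGG or its reverse complement CCCCT, was searched on both strands in the 500 bases before each start codon. TPS1 held 6 cores, TSL1 5, TPS2 4, NTH1 3, TPS3 2, ATH1 1 and NTH2 none. Of 6019 protein-coding genes with a full window, 34% held at least 1 core, 8.12% at least 2, 1.83% at least 3 and 0.449% at least 4. With a window of 1000 bases, chosen after seeing the data, NTH2 held 1 core, as did ATH1, and TSL1 held 7. The core nearest to the start codon of each gene that has one is shown in capitals with the bases around it, since the number of cores is set beside the salt response further on. The TPS1 line holds a neighbouring core as well. Each line reads 5′ to 3′ on the gene's own strand.
TPS1, chrII:490615-490643, minus strand, 239 bases before the start codon: gcAGGGGctctcAGGGGggcgccatggac
TPS2, chrIV:593573-593601, plus strand, 308 bases before: gggtctgattatAGGGGttagttacgctc
TSL1, chrXIII:70447-70475, plus strand, 165 bases before: ggggtagaaccaAGGGGctagcacactca
NTH1, chrIV:452611-452639, minus strand, 152 bases before: ctagaaattttcCCCCTatcgttttccgt
TPS3, chrXIII:793570-793598, minus strand, 217 bases before: gaattaattaatCCCCTtcagcacgcagc
ATH1, chrXVI:615063-615091, plus strand, 304 bases before: atctcttctttgCCCCTcaaaatttattt

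Before salt the wild type held modest levels of these transcripts. TPS1 was the highest at 70.3 ± 15.5 FPKM (SD, n = 2), at percentile 66.1 of the tested features, and ATH1 the lowest at 3.96 ± 0.382, at percentile 6.60. Between them stood TPS2 at 40.0 ± 0.108, NTH1 at 36.5 ± 7.82, TPS3 at 29.6 ± 3.75, NTH2 at 10.9 ± 2.23 and TSL1 at 7.87 ± 3.09 FPKM. The libraries of NTH1 overlapped those of its neighbours TPS2 and TPS3 in this order, and those of NTH2 overlapped those of TSL1. Within each library NTH1 stood above TPS3 and NTH2 above TSL1, while TPS2 was above NTH1 in library 0 only. None of these orders was tested.

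**Figure D1:**
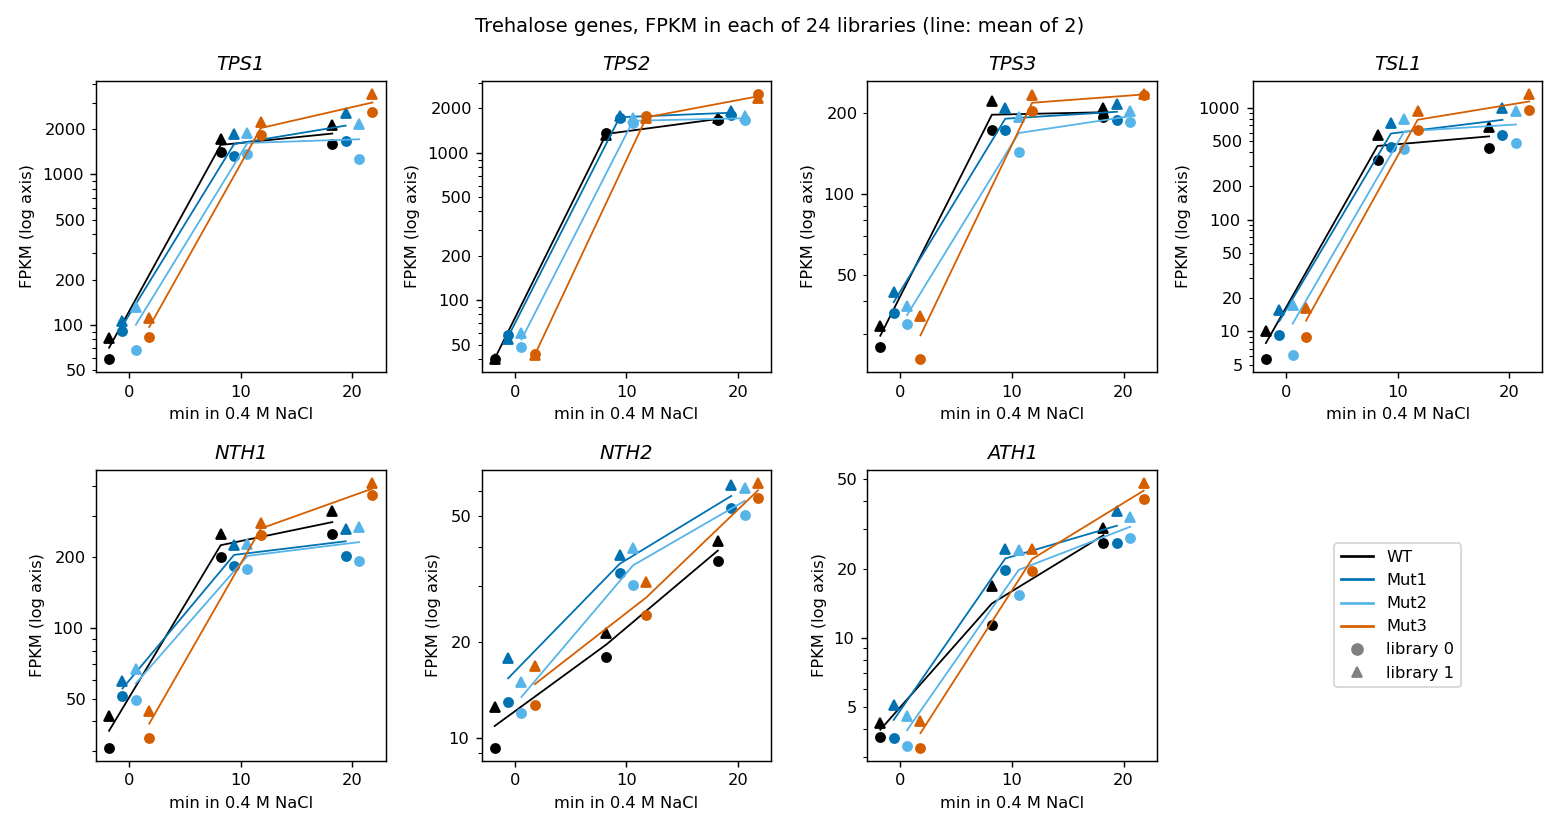
FPKM of each gene in each of the 24 libraries on a log axis against minutes in 0.4 M NaCl, with strains set side by side at each time, circles for library 0, triangles for library 1 and lines through the means of the 2 libraries. All 7 genes were higher at 10 min than at 0 min in every strain, the means of all 7 were higher again at 20 min, and library 1 lay above library 0 in all 12 groups for every gene but TPS2.

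Within 10 min of salt all 7 genes rose in the wild type, against 17.6% of tested features that were called as higher at an adjusted p under 0.05 (limma, Benjamini-Hochberg over 6359 features). The libraries at 10 min lay above those at 0 min for all 7, where 59.9% of tested features had groups that did not overlap. The median log2 change of the 7 was 2.69, beside 0.02 over all tested features. All 7 also rose by 10 min in Mut1, Mut2 and Mut3, where 15.8%, 16.3% and 17.5% of features were called as higher.

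Of the 7 changes the 3 largest were those of the synthesis genes TSL1, TPS2 and TPS1. TSL1, the gene of the larger regulatory subunit, stood at 5.68 and 10.1 FPKM in the untreated wild-type libraries and at 343 and 568 at 10 min. Its log2 change of 5.69 ± 0.53 (SE), a 51.5-fold ratio of FPKM plus 1, had an adjusted p of 1.09e-06 and was the 20th highest of 6359. TPS2, the phosphatase gene, went from 40.1 and 40.0 to 1366 and 1320 FPKM, a log2 change of 5.03 ± 0.11 (adjusted p = 2.84e-13). Its SE was the smallest of the 7, and its change was the 38th highest. TPS1, the synthase gene, went from 59.3 and 81.3 to 1418 and 1728 FPKM, a log2 change of 4.47 ± 0.35 (adjusted p = 1.96e-07). TPS3, the paralogue of TSL1, went from 27.0 and 32.3 to 174 and 222 FPKM, a log2 change of 2.69 ± 0.20 (adjusted p = 1.06e-07). TSL1 therefore started below TPS3 and ended above it in both libraries.

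The synthesis genes rose in the mutants too. TSL1 stood at 450 and 726 FPKM in Mut1, 429 and 800 in Mut2 and 633 and 928 in Mut3, with log2 changes of 5.46, 5.68 and 5.89. TPS2 stood at 1724 and 1764 FPKM in Mut1, 1586 and 1715 in Mut2 and 1773 and 1712 in Mut3, with log2 changes of 4.93, 4.91 and 5.32. TPS1 and TPS3 rose by log2 changes of 3.99 and 2.24 in Mut1, 4.06 and 2.21 in Mut2 and 4.39 and 2.86 in Mut3.

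The trehalase genes rose in the same interval. NTH1, which encodes the main cytosolic trehalase, went from 30.9 and 42.0 to 200 and 250 FPKM in the wild type, a log2 change of 2.60 ± 0.24 (adjusted p = 8.96e-07). ATH1 went from 3.69 and 4.23 to 11.4 and 17.0 FPKM, a log2 change of 1.59 ± 0.25 (adjusted p = 0.000185). NTH2, whose product is the close relative of Nth1, went from 9.34 and 12.5 to 18.0 and 21.4 FPKM, a log2 change of 0.80 ± 0.21 (adjusted p = 0.00806), ranking 1126th. The call of NTH2 was lost without library 0 at 0 min (adjusted p = 0.0948) or library 1 at 10 min (0.0716) and in a fit on these groups alone (0.113), and it was kept with the library number as a block. Fitted on their own groups alone, the rises of NTH2 were not called in the mutants either (adjusted p = 0.0514, 0.0669 and 0.0929 in Mut1, Mut2 and Mut3). In Mut3 the rise of NTH2, a log2 change of 0.87, was lost without library 0 at 0 min (0.066) or library 1 at 10 min (0.0649).

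The order of the trehalase genes differed between strains at 10 min. NTH1 rose by log2 changes of 1.87 in Mut1 and 1.79 in Mut2, beside 2.74 in Mut3. NTH2 rose by 1.16 and 1.31 in Mut1 and Mut2, beside 0.87 in Mut3, and ATH1 by 2.12, 2.06 and 2.26 in Mut1, Mut2 and Mut3. ATH1 thus rose more than NTH1 in Mut1 and Mut2, whereas NTH1 rose more than ATH1 in the wild type and Mut3. These orders compare fitted changes and were not tested between genes.

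**Figure D2:**
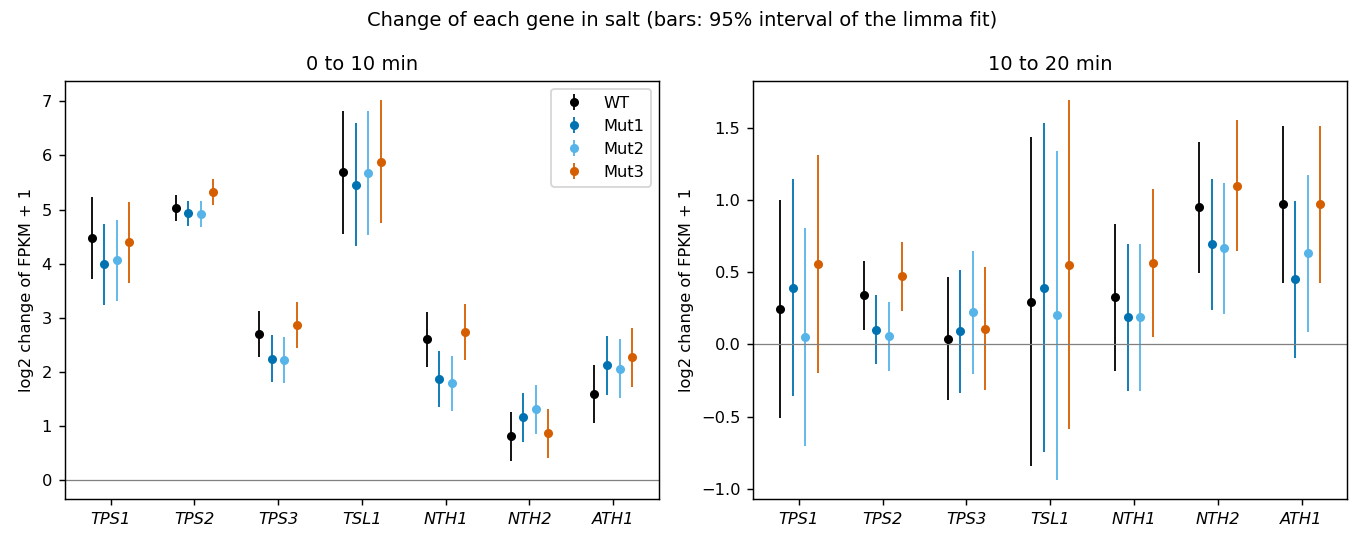
Log2 change of FPKM plus 1 for each gene and strain from 0 to 10 min (left) and from 10 to 20 min (right), with 95% intervals of the limma fit. From 0 to 10 min the wild-type changes run from 0.80 for NTH2 to 5.69 for TSL1, and from 10 to 20 min the highest points belong to NTH2 and ATH1.

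Between 10 and 20 min fewer of the 7 genes were called. In the wild type NTH2 rose again, from 18.0 and 21.4 to 36.1 and 41.7 FPKM, a log2 change of 0.95 ± 0.21 (adjusted p = 0.00764). ATH1 rose from 11.4 and 17.0 to 26.2 and 30.2 FPKM, a log2 change of 0.97 ± 0.25 (adjusted p = 0.0201). The libraries of the 2 times did not overlap for either gene, as for 48.1% of tested features. The other 5 genes were not called in this interval, in which 6.13% of tested features were called as higher. The changes were not tested between genes. The 95% intervals of TSL1 (-0.84 to 1.44) and TPS1 (-0.51 to 0.996) hold the changes of NTH2 and ATH1, and those of TPS2, TPS3 and NTH1 do not. With the block TPS2 (log2 change 0.34, adjusted p = 0.00647) and NTH1 (0.33, adjusted p = 0.00501) were called as well, where 22.8% of features were called as higher. The call of NTH2 was lost without library 0 at 10 min (adjusted p = 0.0744) or library 1 at 20 min (0.0799), and that of ATH1 without library 0 at 10 min (0.202) or either library at 20 min (0.0590 and 0.144). Neither was called in a fit on these groups alone (0.164 and 0.216), and the same holds for each call between 10 and 20 min or between strains given hereafter for the 7 genes.

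In Mut3 NTH2, ATH1 and TPS2 rose from 10 to 20 min. NTH2 went from 24.4 and 31.0 to 56.8 and 63.4 FPKM (log2 change 1.10, adjusted p = 0.00285), ATH1 from 19.7 and 24.6 to 40.7 and 47.8 (0.97, adjusted p = 0.0191) and TPS2 from 1773 and 1712 to 2497 and 2340 (0.47, adjusted p = 0.0105). In this comparison 6.18% of features were called as higher. With the block TPS1 (0.56, adjusted p = 0.00581), TSL1 (0.55, adjusted p = 0.00954) and NTH1 (0.56, adjusted p = 7.34e-05) were called too, against 24.2% of features called as higher. NTH1 was also called on rescaling of the libraries by median ratios, without the block (adjusted p = 0.0154). The call of TPS2 was lost on that rescaling (adjusted p = 0.102) and without library 0 or 1 at 10 min (0.0579 and 0.0682) or library 0 at 20 min (0.0847). That of ATH1 was lost without library 0 at 10 min (0.175) or library 0 or 1 at 20 min (0.0543 and 0.14).

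In Mut1 and Mut2 none of the 7 was called by limma between 10 and 20 min, and 1.38% and 2.14% of features were called as higher. With the block NTH2 (log2 changes 0.69 and 0.66) and ATH1 (0.45 and 0.63) were called in both strains, with adjusted p of 3.45e-05 and 4.40e-05 for NTH2 and 0.00687 and 0.000576 for ATH1. In these 2 strains 10.2% and 14.7% of features were then called as higher. On rescaling alone NTH2 was called in Mut1 (0.00161) and Mut2 (0.00368) and ATH1 in Mut2 (0.0415).

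Set on the FPKM scale, the wild type had covered 97.5% of the 20 min change of TPS3 by 10 min, 83.4% of that of TPS1, 81.9% for TSL1, 78.6% for TPS2 and 76.7% for NTH1. It had covered 42.1% of the change of ATH1 and 31.4% of that of NTH2. NTH2 had the lowest share of the 7 in each strain, with 47.0% in Mut1, 50.8% in Mut2 and 28.5% in Mut3. ATH1 had the next lowest, with 67.2%, 59.5% and 45.4%. By 20 min all 7 genes were called as higher than at 0 min in every strain, where 24.5% of features were called as higher in the wild type, 20.2% in Mut1, 21.5% in Mut2 and 25.3% in Mut3.

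The salt response at 10 min in the wild type can be set beside the number of STRE cores shown above. The 3 genes with 4 or more cores, TSL1, TPS2 and TPS1, had log2 changes from 4.47 to 5.69. NTH1 with 3 and TPS3 with 2 had 2.60 and 2.69, ATH1 with 1 had 1.59, and NTH2 with none in this window had 0.80. Over all tested protein-coding genes the median log2 change was -0.09 for the 3744 genes with no core, 0.14 for 1496 with 1, 0.57 for 366 with 2, 1.03 for 83 with 3 and 2.73 for 27 with 4 or more. The share called as higher went from 13% with no core to 70.4% with 4 or more. Each of the 7 genes lay above the median of its class. These classes include the 7 genes themselves, and TPS1, TPS2 and TSL1 are 3 of the 27 with 4 or more. A match is a string of letters and not a measured site.

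**Figure D3:**
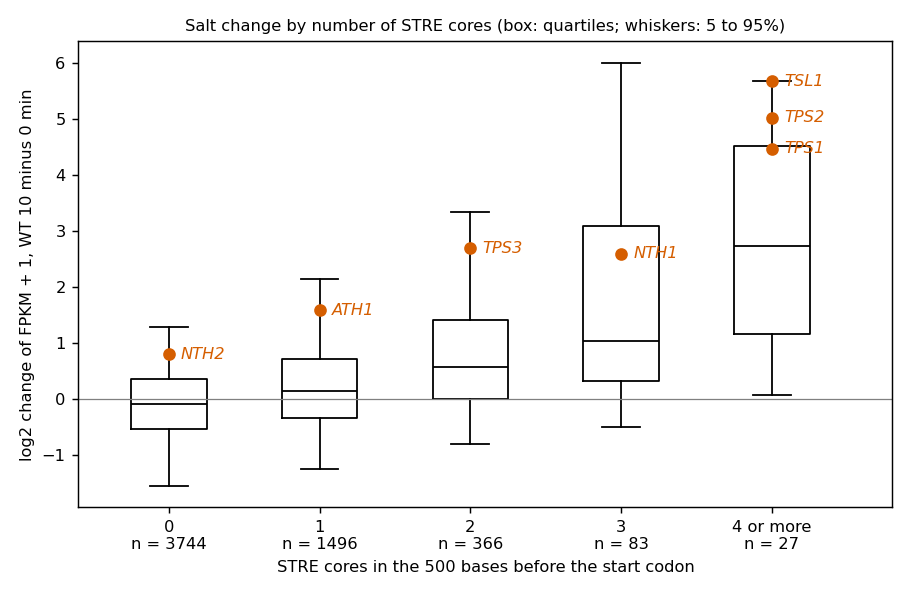
Log2 change of FPKM plus 1 in the wild type from 0 to 10 min for tested protein-coding genes grouped by STRE cores in the 500 bases before the start codon, as boxes of quartiles with whiskers at 5 and 95%, and the 7 trehalose genes as points. The class medians run from -0.09 with no core to 2.73 with 4 or more, and every trehalose gene lies above the median of its class.

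Before salt TPS2 was higher in Mut1 and Mut2 than in the wild type. It stood at 57.9 and 54.7 FPKM in Mut1 and 47.9 and 60.2 in Mut2, beside 40.1 and 40.0 in the wild type, log2 differences of 0.48 ± 0.11 (adjusted p = 0.0209) and 0.42 ± 0.11 (adjusted p = 0.0498). It was the only gene of the 7 called in either mutant, where 3.07% and 2.89% of features were called as higher. Both calls were lost on median-ratio rescaling (adjusted p = 0.121 and 0.174). The Mut1 call was also lost without any 1 of its 4 libraries (adjusted p = 0.0766 to 0.154). The Mut2 call was lost without either wild-type library (0.212 and 0.198) or Mut2 library 1 (0.416). In Mut3 TPS2 stood at 42.8 and 42.5 FPKM and 0 of the 7 were called by limma, where 1.2% of features were called as higher.

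With the library number as a block more of the genes were called before salt. In Mut1 they were TPS1, TPS2, TPS3, TSL1, NTH1 and NTH2, that is 6 of 7 as higher, where 11.6% of features were called as higher. In Mut2 they were TPS1, TPS2, NTH1 and NTH2, where 12.2% of features were called as higher, and in Mut3 TSL1 and NTH2, where 5.3% were. NTH1 stood at 51.2 and 59.1 FPKM in Mut1 and 49.2 and 66.9 in Mut2, above 30.9 and 42.0 in the wild type in both cases and with no overlap, as for 32.2% of features in Mut1 and 31.2% in Mut2. Its log2 differences were 0.60 in Mut1 (adjusted p = 0.257 without the block, 9.87e-05 with it) and 0.66 in Mut2 (0.187 and 4.24e-05). On rescaling alone, where TPS2 was not called, NTH1 was called in Mut1 (0.0120) and Mut2 (0.00486) and NTH2 in Mut1 (0.0169). In Mut3 NTH1 stood at 34.1 and 44.2 FPKM, overlapping the wild type. ATH1 was not called in any mutant before salt with or without the block.

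At 10 min NTH2 was higher in Mut1 and Mut2 than in the wild type. It stood at 33.0 and 37.6 FPKM in Mut1 and 30.4 and 39.5 in Mut2, beside 18.0 and 21.4 in the wild type, with no overlap, as for 48.8% of features in Mut1 and 44.5% in Mut2. The log2 differences were 0.81 ± 0.21 (adjusted p = 0.0192) and 0.79 ± 0.21 (adjusted p = 0.0247), or 1.76-fold and 1.73-fold. In Mut3 it stood at 24.4 and 31.0 FPKM, a log2 difference of 0.47 (adjusted p = 0.494) that was called with the block (0.000965) and on rescaling alone (0.0266). TPS2 was also called as higher in Mut1 (log2 difference 0.38, adjusted p = 0.0364). Called as higher were 6.73% of features in Mut1, 5.13% in Mut2 and 1.05% in Mut3, so 2 of 7, 1 of 7 and 0 of 7 stand beside these shares. The Mut1 call of NTH2 was lost without WT library 0 (adjusted p = 0.142), Mut1 library 0 (0.0568) or Mut1 library 1 (0.141). The Mut2 call was lost without WT library 0 (0.164), WT library 1 (0.0592) or Mut2 library 1 (0.208). That of TPS2 was lost on rescaling (0.171) and without any 1 of the 4 libraries (0.112 to 0.178).

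With the block ATH1 was called as higher at 10 min in all 3 mutants. Its log2 differences were 0.64 in Mut1 (adjusted p = 0.000247), 0.45 in Mut2 (0.00323) and 0.63 in Mut3 (0.00121). The Mut1 difference was also called on rescaling alone (0.0169). TPS2 was then called in Mut1, Mut2 and Mut3, and TSL1 in Mut2 and Mut3. Features called as higher with the block were 22% in Mut1, 20.2% in Mut2 and 6.73% in Mut3. Without library 1 of Mut2 at 10 min the TSL1 difference of Mut2 turned from 0.41 to -0.04 (adjusted p = 0.988), since TSL1 was lower in library 0 than in library 1 in every group.

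At 20 min TPS2 was higher in Mut3 than in the wild type. It stood at 2497 and 2340 FPKM in Mut3, beside 1678 and 1717 in the wild type, 1806 and 1937 in Mut1 and 1659 and 1773 in Mut2. The log2 difference from the wild type was 0.51 ± 0.11 (adjusted p = 0.0214), the only gene of the 7 called, where 1.76% of features were called as higher. That call was lost on rescaling (adjusted p = 0.114) and without any 1 of the 4 libraries (0.0847 to 0.172). With the block 6 of 7 were called as higher in Mut3, all but TPS3, where 11.7% of features were called as higher. On rescaling alone NTH2 (0.00399) and ATH1 (0.0444) were called. TSL1 stood at 957 and 1320 FPKM beside 437 and 672 in the wild type, a log2 difference of 1.05 (adjusted p = 0.44 without the block, 0.00033 with it).

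In Mut1 and Mut2 at 20 min none of the 7 was called against the wild type without the block, where 3.84% and 4.62% of features were called as higher. NTH2 stood at 53.1 and 62.4 FPKM in Mut1 and 50.3 and 61.1 in Mut2, beside 36.1 and 41.7 in the wild type. It was called as higher with the block (log2 differences 0.56 and 0.50, adjusted p = 8.72e-05 and 0.000176) and on rescaling alone (0.00240 and 0.00481). NTH1 stood at 203 and 264 FPKM in Mut1 and 193 and 270 in Mut2, beside 250 and 313 in the wild type, libraries that overlap, and with the block it was called as lower (log2 differences -0.27 and -0.29, adjusted p = 0.0184 and 0.012). With the block 17.1% and 18.9% of features were called as higher and 15.5% and 16.5% as lower. As counts, 2 of 7 genes in Mut1 and 1 of 7 in Mut2 were called as higher and 1 of 7 in each as lower. These counts are not set apart from the shares of all features. The lower NTH1 was not called on rescaling alone (adjusted p = 0.263 and 0.199), so that side rests on the block.

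**Figure D4:**
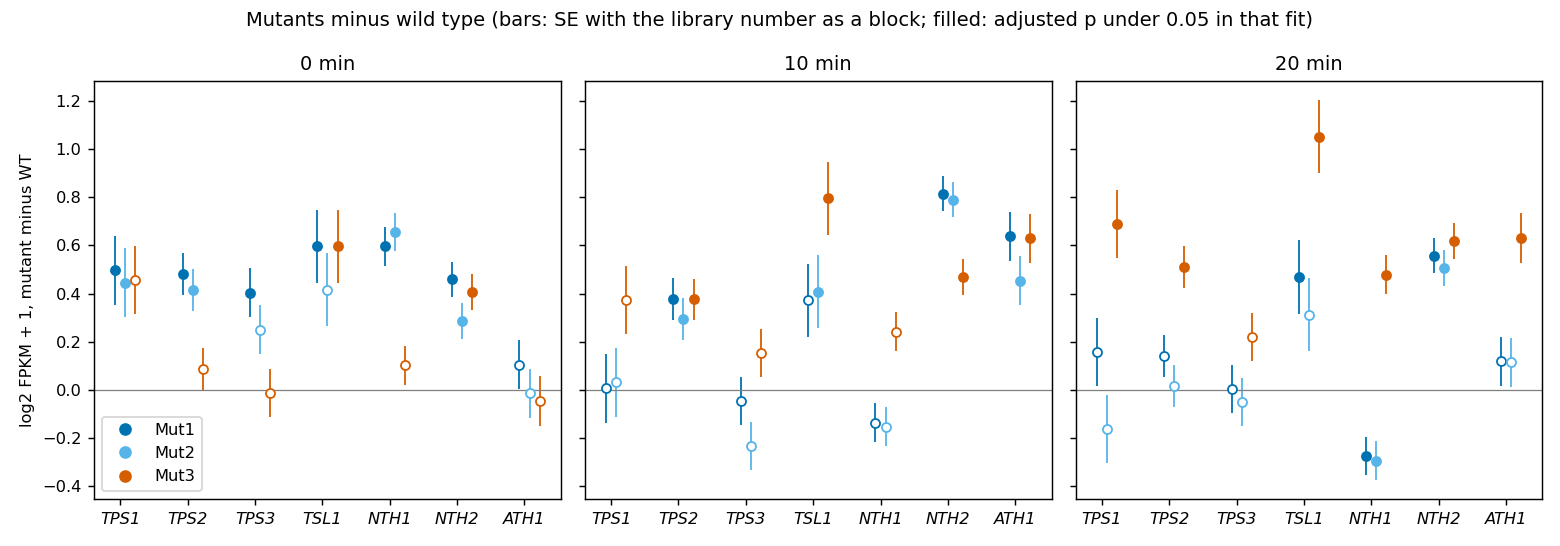
Log2 difference of FPKM plus 1 between each mutant and the wild type at 0, 10 and 20 min for each gene, with SE from the fit that has the library number as a block and filled points where that fit called the gene at an adjusted p under 0.05. NTH1 lies above 0 in Mut1 and Mut2 at 0 min and below 0 at 20 min, and 6 of 7 genes are filled for Mut3 at 20 min.

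The difference between a mutant's salt response and that of the wild type was tested directly. None of the 42 differences, 7 genes in 3 mutants at 10 and at 20 min, was called by limma without the block or rescaling, where 2.59, 2.42 and 0.189% of features were called in either direction in Mut1, Mut2 and Mut3 at 10 min and 2.5, 3.13 and 0.299% at 20 min. With the block 14 were called. The response of NTH1 was smaller in Mut1 by 0.73 on the log2 scale at 10 min (adjusted p = 0.4 without the block, 0.000617 with it) and smaller in Mut2 by 0.81 (0.319 and 0.000292). At 20 min it was smaller by 0.87 in Mut1 (0.317 and 0.000161) and by 0.95 in Mut2 (0.169 and 5.62e-05). A response difference takes in the level before salt, where NTH1 was higher than in the wild type by 0.60 in Mut1 and 0.66 in Mut2. At 10 min its level differed from the wild type by -0.13 and -0.15, not called with the block (adjusted p = 0.194 and 0.149). The 4 response differences of NTH1 were also called on rescaling without the block (0.0311 and 0.0188 at 10 min, 0.0181 and 0.00659 at 20 min in Mut1 and Mut2). With the block the response of 16.4, 15.6 and 1.09% of all features was called as different from the wild type in Mut1, Mut2 and Mut3 at 10 min, and of 15.5, 25.3 and 3.73% at 20 min.

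Comparing the mutants with each other, the added M92K change of Ypd1 that separates Mut2 from Mut1 went with no called difference. Over the 21 comparisons of a gene at a time the log2 difference, Mut2 minus Mut1, ran from -0.32 to 0.06, none was called with or without the block, and every adjusted p of the limma fit was 1. At 0, 10 and 20 min 0, 0.0786 and 0% of all features were called in either direction. The 95% intervals still reached from -1.32 to 1.17, both for TSL1, so a difference of that size cannot be told apart from none for that gene, whereas for TPS2 they lay within -0.36 and 0.17. Mut3 differed from Mut2 in TPS2 at 20 min (log2 difference 0.49, adjusted p = 0.0149), where 2.78% of features were called as higher in Mut3. That call was lost on rescaling (0.0913), without the Mut2 library with high 21S_rRNA (0.123), and without Mut3 library 0 (0.104) or 1 (0.0605). With the block TPS1, TPS2, TSL1, NTH1 and ATH1 were called as higher in Mut3 than in both Mut1 and Mut2 at 20 min, where 12.8% and 18.7% of features were called as higher. NTH1 was called in both on rescaling alone as well (0.00533 and 0.00205). At 0 min the block gave calls in the other direction, with TPS2, TPS3 and NTH1 lower in Mut3 than in Mut1 and TPS2 and NTH1 lower than in Mut2, where 5.58% and 6.27% of features were called as lower. At 10 min the block called NTH2 as lower in Mut3 than in Mut1 and Mut2, beside 10.6% and 8.46% of features called as lower. It called NTH1 as higher in Mut3 than in both and TPS3 higher than in Mut2, beside 10.2% and 9.55% called as higher. None of these differences at 10 min was called without the block.

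Ratios within a library do not depend on scaling between libraries. The summed FPKM of the 3 breakdown genes was 0.346 ± 0.0184 of that of the 4 synthesis genes in the untreated wild type, and 0.0722 ± 0.0040 at 10 min and 0.0806 ± 0.00076 at 20 min. In the mutants it went from 0.318 to 0.382 before salt to between 0.0634 and 0.0736 in salt. In every library in salt the ratio was lower than in every library before salt. The 7 genes together held 0.00776% of the FPKM sum in the untreated wild type, 0.142% at 10 min and 0.238% at 20 min, and 0.343% in Mut3 at 20 min.

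The FPKM ratio of the regulatory subunit genes, TSL1 per TPS3, was 0.261 ± 0.0713 before salt in the wild type, 2.27 ± 0.415 at 10 min and 2.73 ± 0.667 at 20 min. At 20 min the ratio was 3.79 ± 1.11 in Mut1, 3.58 ± 1.37 in Mut2 and 4.83 ± 1.08 in Mut3. Of the neutral trehalase genes, NTH2 made up 23.1 ± 0.180% of the NTH1 and NTH2 sum in the untreated wild type, 8.08 ± 0.261% at 10 min and 12.2 ± 0.608% at 20 min. Before salt the mutants' shares were 21.7 ± 2.12% in Mut1, 18.9 ± 0.911% in Mut2 and 27.4 ± 0.232% in Mut3. In salt Mut3 had 9.45 ± 0.729% and 13.3 ± 0.033% at 10 and 20 min, Mut1 14.8 ± 0.687% and 19.9 ± 1.18%, and Mut2 14.7 ± 0.144% and 19.6 ± 1.54%. At both times in salt the libraries of Mut1 and Mut2 lay above those of the wild type and Mut3. These ratios were not tested.

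**Figure D5:**
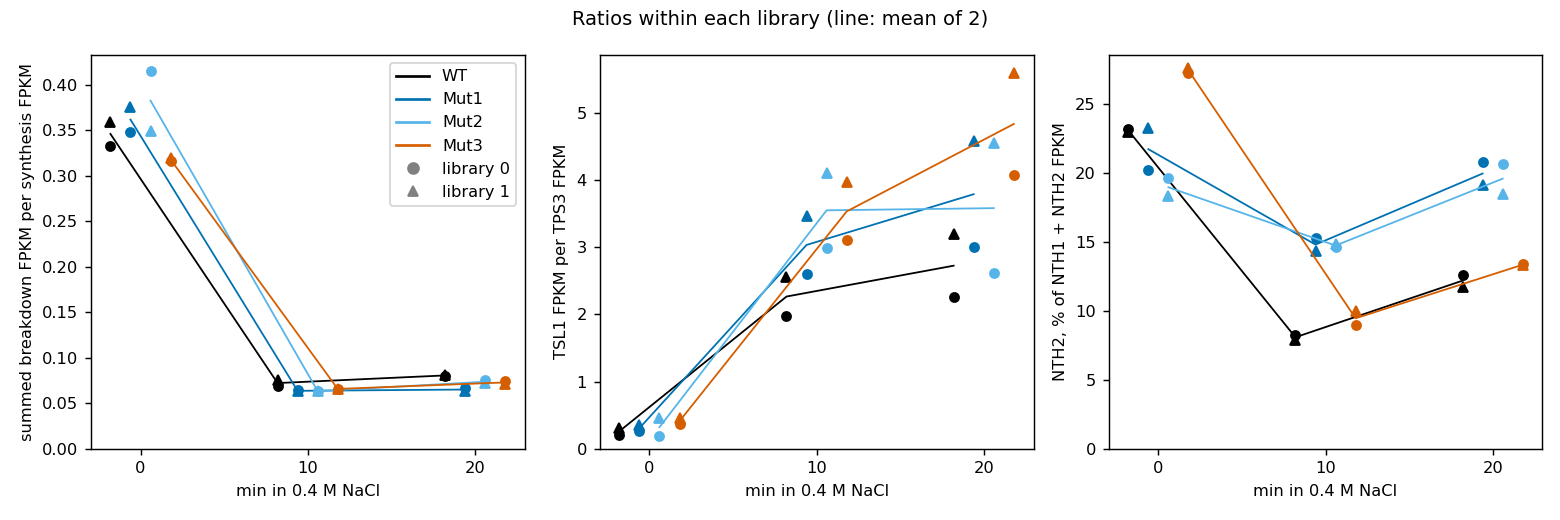
Ratios within each library against minutes in 0.4 M NaCl, with circles for library 0, triangles for library 1 and lines through the means of the 2 libraries. Left, summed breakdown per synthesis FPKM averages 0.346 before salt and 0.0722 at 10 min in the wild type. Middle, TSL1 per TPS3 is 0.261 and 2.27. Right, the NTH2 share of neutral trehalase FPKM in salt is higher in Mut1 and Mut2 than in the wild type and Mut3.

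The library number went with the level of 6 of the 7 genes. TSL1 was higher in library 1 than in library 0 in 12 of 12 groups, by 1.38-fold to 2.55-fold with a median of 1.65-fold. TPS1, TPS3, NTH1, NTH2 and ATH1 were also higher in library 1 in 12 of 12 groups, with medians from 1.18-fold to 1.36-fold. TPS2 was higher in 6 of 12, with a median of 1.01-fold. Over all tested features the median was 1.12-fold, and 11.7% of features had a ratio at least that of TSL1. The ratio was lower for longer genes, with a median of 1.02-fold over 474 genes of 3000 bases or more, the class of TSL1, TPS3 and ATH1, of which 2.53% lay above TSL1. The part of this shift in the differences between strains was not tested beyond the fits with the block.

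Genes around the pathway were counted from 4 lists drawn up by function, with earlier results of these data known. Their counts stand beside the 17.6% of all features called as higher and 17.6% called as lower in the wild type by 10 min, and the 15.8%, 16.3% and 17.5% called as higher in Mut1, Mut2 and Mut3. Of 6 genes that supply the glucose phosphates and UDP-glucose, 4 rose and 0 fell by 10 min in the wild type, with a median log2 change of 3.15. The glucokinase gene GLK1 rose 46.9-fold, from 46.1 to 2187 FPKM, a value that its overlap with YCL042W makes uncertain. The phosphoglucomutase gene PGM2 rose 23.6-fold and the hexokinase gene HXK1 17.7-fold. HXK2, the other hexokinase gene, was not called at 10 min and at 20 min was 1.56-fold lower than at 0 min (adjusted p = 0.000249). The same 4 genes were called as higher by 10 min in each mutant.

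Glycogen competes with trehalose for UDP-glucose. Of 11 glycogen genes 9 rose and 0 fell in the wild type by 10 min, with a median log2 change of 1.91, led by the synthase genes GSY1 (22.0-fold) and GSY2 (5.22-fold) and the branching enzyme gene GLC3 (5.93-fold). In Mut1, Mut2 and Mut3 the counts were 8, 8 and 9. GLC3 rose 12.4-fold, 14.6-fold and 9.27-fold in them.

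Nth1 is switched on by protein kinase A and by Bmh1 and Bmh2, which bind its phosphorylated form, and Dcs1 and Dcs2 have been linked to trehalase control. Of these 8 regulator genes 5 rose and 0 fell in the wild type by 10 min. DCS2 rose 10.8-fold and DCS1 8.59-fold. Of 4 transcription factor genes, MSN2 rose 5.01-fold and GIS1 4.02-fold, and MSN4 and HSF1 were not called. MSN2 went from 30.6 to 157 FPKM in the wild type, from 44.1 to 109 in Mut1 and from 40.0 to 104 in Mut2. The smaller response of MSN2 at 10 min was called without the block in Mut1 (log2 difference -1.04, adjusted p = 0.0113) and Mut2 (-0.99, adjusted p = 0.0158). In Mut3 the response of none of the 4 transcription factor genes was called as different from the wild type in that fit, at 10 or 20 min. MSN4 was 2.18-fold lower at 10 min than at 0 min in Mut1 (adjusted p = 0.016), 2.08-fold in Mut2 (0.0221) and 1.88-fold in Mut3 (0.0436).

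Likeness of pattern was measured by Pearson's r between the 12 group means of log2 FPKM plus 1. The points share the same salt course in 4 strains, so r is high for any gene that salt raises, and it is given as a description. Among the 4 synthesis genes and NTH1 r ran from 0.981 for TSL1 with NTH1 to 0.999 for TSL1 with TPS1. NTH2 stood apart, with 0.858 to 0.887 against these 5 and 0.953 against ATH1. Among 5963 other genes with a mean of at least 5 FPKM, those nearest to TPS1 were the chaperone gene HSP42, GLK1 and RTK1, with r of 0.999, 0.999 and 0.998. Nearest to TPS2 were ASI2, the aldehyde dehydrogenase gene ALD3 and the catalase gene CTT1, and to TPS3 RCN2, CTT1 and ASI2. Near to TSL1 were HSP42 and IGD1, and nearest to NTH1 were JSN1, SIP5 and the aldose reductase gene GRE3. Nearest to NTH2 were UGX2 (0.997), NNR1 and RGC1, and to ATH1 the autophagy gene ATG29 (0.998), which overlaps YPL165C and is uncertain, the mitochondrial outer membrane protein gene OM45, and DCS2.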

How the data were processed

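Per the submitters' processing notes, the authors made the deposited FPKM values with TopHat2 and Cuffdiff on sacCer3. Tool versions, annotation and scaling are not stated in the sources. The RNA came from mid-log cells and the kit was Illumina's stranded mRNA kit, per the labels' protocols. Columns were assigned by name, those of strains 1 to 3 as Mut1 to Mut3, and which labelled replicate a column holds is unstated. Of 7126 feature names, 6079 matched RefSeq R64 by locus tag or symbol.

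A linear model with a mean for each of the 12 groups was fitted in limma 3.58.1 under R 4.3.3 to log2(FPKM + 1) of the 6359 features that averaged 1 FPKM or more. Tests were moderated and two-sided, with a trend of variance on mean and Benjamini-Hochberg adjustment over these features. The fit without the block was checked on simulated data for Mut1 against the wild type at 0 min, with independent noise in each library. The fit with the block was not simulated. Errors of FPKM and ratios are SD over 2 libraries and those of log2 changes are SE. Same-numbered libraries deviated together from their group means (r from 0.230 to 0.601, 66 pairs of groups), so the number was also fitted as a block, and its values are given where they change a call. Fits that leave out a library have no block. Other alternatives were rescaling by median ratios, a pseudocount of 0.1, no filter, no variance trend, and the compared groups alone.

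The 7 genes are named throughout. From each list the rule names up to 3 called genes with the largest change in the wild type at 10 min, and for each of the 7 the 3 genes of most similar pattern. One gene that the rule names is not reported here. HXK2, MSN4 and HSF1 were added after their values were seen. The members and lists were chosen with earlier results of these data known. Sequences were read from the R64 genome with Biopython 1.88.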

Additional observations from a re-analysis of the deposited data

Results flagged for a closer look

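In 14 of 42 tests the salt response of a gene was called as different between a mutant and the wild type. Each was called once the library number was fitted as a block. In Mut1, Mut2 and Mut3 these calls were 4, 4 and 1 of 7 at 10 min, beside 16.4, 15.6 and 1.09% of all features. At 20 min they were 1, 3 and 1 of 7, beside 15.5, 25.3 and 3.73%. Without the block none was called on the values as deposited, and on rescaling the 4 of NTH1 were. Values are log2 differences in response, mutant minus wild type. For NTH1 they were -0.73 in Mut1 and -0.81 in Mut2 at 10 min, and -0.87 and -0.95 at 20 min, values that take in its higher level before salt in both strains. For TPS3 they were -0.45 in Mut1 and -0.48 in Mut2 at 10 min (adjusted p = 0.0456 and 0.0337 with the block). For NTH2 they were 0.36 in Mut1 and 0.50 in Mut2 at 10 min (0.0332 and 0.00523). For ATH1 they were 0.53 in Mut1 (0.0233), 0.47 in Mut2 (0.0438) and 0.67 in Mut3 (0.0423) at 10 min, and 0.68 in Mut3 at 20 min (0.02). In Mut2 at 20 min they were -0.61 for TPS1 (0.0399) and -0.40 for TPS2 (0.0294).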

How the results depend on the processing

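With 2 libraries a group and no counts, the depth behind low genes such as ATH1 is unknown and a call can turn on 1 library. A pseudocount of 0.1 and no variance trend left each of the 36 counts of called genes as it was, and dropping the filter moved 1, from 2 to 3 for the wild type from 10 to 20 min. The 10 and 20 min against 0 min counts, 7 in each strain, stayed at 7 at 20 min under every alternative, and were 6 at 10 min in the fit on the compared groups alone. That fit gave 0 for every other comparison. With the library number as a block the counts rose to 4 (WT), 2 (Mut1), 2 (Mut2) and 6 (Mut3) from 10 to 20 min. Against the wild type they were 6, 4 and 2 at 0 min, 3, 4 and 4 at 10 min and 3, 2 and 6 at 20 min in Mut1, Mut2 and Mut3. Mut3 against Mut1 gave 3, 2 and 5 at 0, 10 and 20 min, Mut3 against Mut2 gave 2, 3 and 5, and Mut2 against Mut1 gave 0 throughout. The differences in response gave 4, 4 and 1 at 10 min and 1, 3 and 1 at 20 min. The block combined with median-ratio rescaling gave the same counts but for 3 in Mut1 from 10 to 20 min, 5 in Mut2 against the wild type at 0 min, 5 in Mut2 and in Mut3 at 10 min, and 3 in Mut3 against Mut1 at 10 min. Rescaling alone raised the count from 0 to 1 in Mut1 and to 2 in Mut2 from 10 to 20 min, from 1 to 2 in Mut1 at 0 min and in Mut3 at 20 min against the wild type, and from 0 to 1 in Mut3 at 10 min and in Mut1 and Mut2 at 20 min. It also gave 1 in place of 0 for Mut3 against Mut2 at 0 min, for Mut3 against Mut1 at 20 min, and for the response differences of Mut1 and Mut2 at both times. The genes differed as well: between strains rescaling called NTH1, NTH2 or ATH1, and none of the TPS2 calls was kept. Leaving out 1 library at a time gave 0 to 2 from 10 to 20 min in the wild type and 1 to 2 in Mut3. It gave 0 against the wild type for Mut1 at 0 min and Mut3 at 20 min, 0 to 1 for Mut1 at 10 min and for Mut2 at 0 and 10 min, and 0 to 2 for Mut3 against Mut2 at 20 min. It gave 6 to 7 at 10 against 0 min in the wild type and Mut3. With 1 library left out, the log2 difference of Mut2 from the wild type ran from -0.021 (without library 1 of Mut2) to 0.91 for TPS1 at 0 min and from -0.041 (likewise) to 0.86 for TSL1 at 10 min, none of them called. The causes were not tested.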
